A study of Homo sapiens with 4 samples.

Results

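ATP-binding cassette (ABC) proteins were taken as the rows of the gene table whose symbol is ABC, a subfamily letter from A to G and a number, which gave 46 genes of 57905 identifiers. The table came from RNA sequencing of 4 libraries of cells labelled MG63, an established human osteosarcoma line. For 2 libraries the cells had received a control siRNA, and for the other 2 an siRNA against KLF11, with harvest 48 hours after transfection in both groups. No other treatment or genetic change is given for either group, and the siRNA sequences are not given, so effects of the reagent on other transcripts cannot be told apart from those of KLF11. The 2 KLF11 siRNA libraries are called the knockdown pair and the other 2 the control pair. The values are FPKM, fragments scaled to transcript length and to library size, so levels can be compared between genes, but no counts were used and the read depth is unknown. The labels do not state that the replicates were separate cultures, so p-values measure only how far these libraries differ, and that spread may be technical.

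ABC proteins hydrolyse ATP at a conserved nucleotide-binding domain. Most use it to move a substrate across a membrane, on a single chain or as a pair of smaller chains. Those of subfamilies E and F have no membrane-spanning domain and act on the ribosome. Subfamilies A and G hold many lipid exporters, B and C many pumps for drugs and conjugates, and D transporters of peroxisomes and lysosomes. Several of them, above all ABCB1, ABCC1 and ABCG2, are known for multidrug resistance of tumour cells, and ABCG2 marks the dye-excluding side population in which stem-like cells are sought.

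KLF11, a zinc finger transcription factor that binds GC-rich DNA and the target of the siRNA, stood at 12.3 and 12.4 FPKM with control siRNA and at 5.49 and 6.74 FPKM with KLF11 siRNA (log2 change -0.92, SE 0.139, adjusted p = 0.00951, limma). The labelled cell type was checked against marker lists. Of 12 osteoblast and mesenchymal markers 8 reached a mean of 1 FPKM, while RUNX2, SP7, COL3A1 and LUM did not. All 10 pluripotent cell markers, all 6 epithelial markers and all 9 early endoderm markers with a value (LHX1 was not analysed here) reached it. The markers thus go against the labelled osteosarcoma line, and the identity of the cells is in question, so the libraries are named here only by their siRNA. The summed level of the osteoblast and mesenchymal markers was 1071 and 1015 FPKM in control libraries against 1885.7 and 1879.8 FPKM with KLF11 siRNA. Most of that difference was VIM, at 144 and 131 against 808 and 800 FPKM. Of 8 tested, VIM, CDH11, THY1 and PDGFRB were higher and COL1A1 lower. SPARC, ALPL and COL1A2 did not pass (adjusted p = 0.147, 0.827 and 0.759, limma). The endoderm sum was mostly CER1, which stood at 4430.3 and 4406 against 958 and 2574 FPKM and did not pass (adjusted p = 0.0543, limma). Without CER1 the endoderm sum was 733 and 724 FPKM against 349 and 483 FPKM in KLF11 siRNA replicates 1 and 2, and of 9 tested 5 were lower (SOX17, FOXA2, GATA4, GATA6 and HHEX) and EOMES higher. The summed level of the pluripotent markers was 1546 and 1559 against 3041 and 2529 FPKM, or 1359.9 and 1383 against 1677 and 1460.3 FPKM without POU5F1, the highest of them. Of the 10 pluripotent markers tested, 7 were called higher and 1 lower. The sum of the epithelial markers was 2514 and 2320 against 1166 and 1403 FPKM, with 0 called higher and 5 lower of 6 tested. No leukocyte marker reached 1 FPKM, and CD3E was listed at 0 throughout. Apart from the leukocyte list, these sums differed between the groups beside the ABC genes described here, and their part in those results was not tested. In bulk RNA, fewer cells of a type and less RNA per cell cannot be told apart.

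Of the 46 ABC genes 22 had a mean of at least 1 FPKM over the 4 libraries and were tested with all other such genes by limma on log2(FPKM + 1). With KLF11 siRNA 3 rose (ABCG2, ABCC5 and ABCE1) and 7 fell (ABCC4, ABCA1, ABCA7, ABCB6, ABCA5, ABCA2 and ABCD4), while 12 did not pass an adjusted p of 0.05. That is 13.6% higher and 31.8% lower, against 13.5% higher and 21.7% lower among the 15320 genes tested. In either direction the share was 45.5% of tested ABC genes against a background of 35.2%. Control and knockdown values stood apart with no overlap in 17 of the 22 ABC genes (77.3%), against 73.4% of all tested genes. Higher calls were thus as frequent as in the background and lower calls somewhat more so, which was not tested. The family's median log2 change was -0.0087, against -0.11 for all tested genes, and the median size of the change without its sign was 0.40 against 0.36.

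Those counts rest on each control library. Without control siRNA replicate 1 or 2, limma called 0 ABC genes higher and 0 lower, with 2 higher and 7 lower at an unadjusted p under 0.05 in either case, and adjusted p-values of the 10 called members between 0.0806 and 0.183. Without KLF11 siRNA replicate 1 the counts were 2 and 6, and without replicate 2 they were 3 and 7. Median-of-ratios scaling moved the median of all genes from -0.11 to -0.0058 and gave 5 higher and 7 lower ABC genes, with 2728 higher and 2664 lower over all genes against 2071 and 3329 without it. All 10 called members kept their sign in every alternative.

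**Figure D1:**
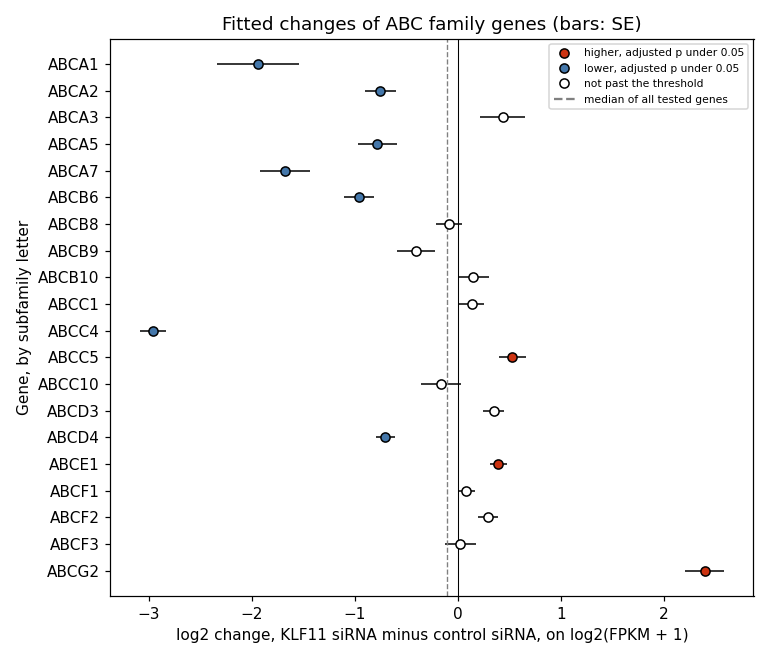
Fitted log2 change of 20 of the 22 tested ABC genes (x axis, KLF11 siRNA minus control siRNA on log2(FPKM + 1); bars are the SE of the fit), ordered by subfamily. ABCG2 at 2.39 and ABCC4 at -2.96 lie at the ends, and the dashed line marks the median of all tested genes at -0.11.

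In control libraries the family was led by ABCD4, ABCF1, ABCE1 and ABCC4, and by ABCD4, ABCE1, ABCF1 and ABCF2 with KLF11 siRNA. ABCC4 went from rank 4 of 46 by mean FPKM to rank 18, and ABCG2 from rank 22 to rank 13. ABCA7 moved from rank 8 to rank 17 and ABCC5 from rank 16 to rank 8. The summed FPKM of the family was 414 and 385 in the control pair and 343 and 341 in the knockdown pair. Ribosome-associated members made up 29.5% and 30.6% of it in the control pair and 41.2% and 40.8% in the knockdown pair, and lipid exporters 9.82% and 9.87% against 3.75% and 5.34%. Drug and conjugate pumps held 17.3% and 15.9% against 17.0% and 16.3%, although their main members changed. Shares also move with the family sum, which was lower in the knockdown pair. The pumps summed to 71.5 and 61.4 FPKM in the control pair and 58.5 and 55.7 FPKM in the knockdown pair. Ribosome-associated members summed to 122 and 118 against 141 and 139 FPKM. These shares and sums are a description and were not tested.

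**Figure D2:**
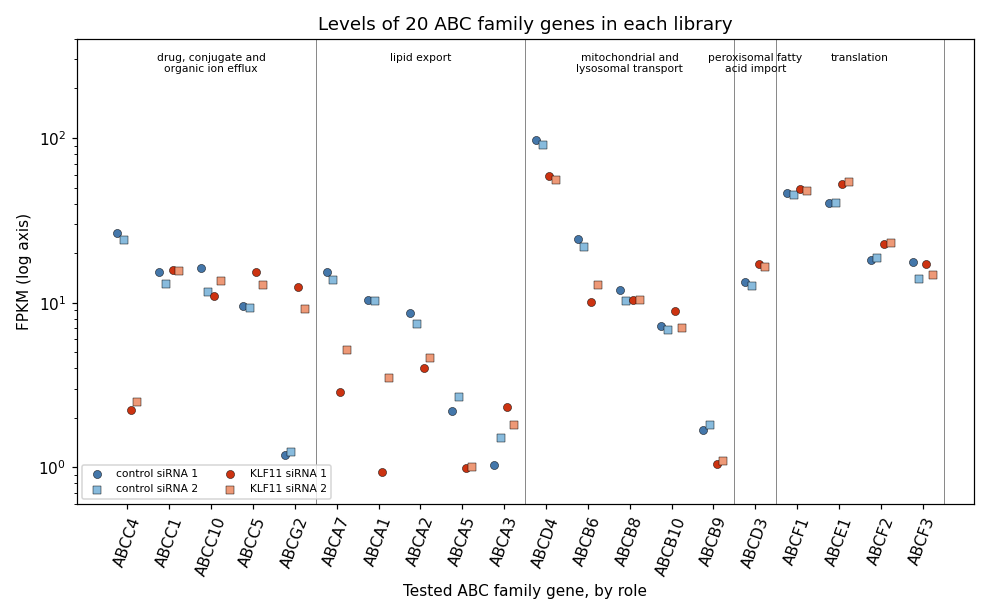
FPKM (log axis) of 20 of the 22 tested ABC genes in each of the 4 libraries, grouped by role. Blue points are control siRNA and red points KLF11 siRNA libraries, circles replicate 1 and squares replicate 2; ABCG2 rises from 1.19 and 1.25 to 12.4 and 9.15 FPKM, and ABCC4 falls from 26.4 and 23.9 to 2.24 and 2.49 FPKM.

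**Figure D3:**
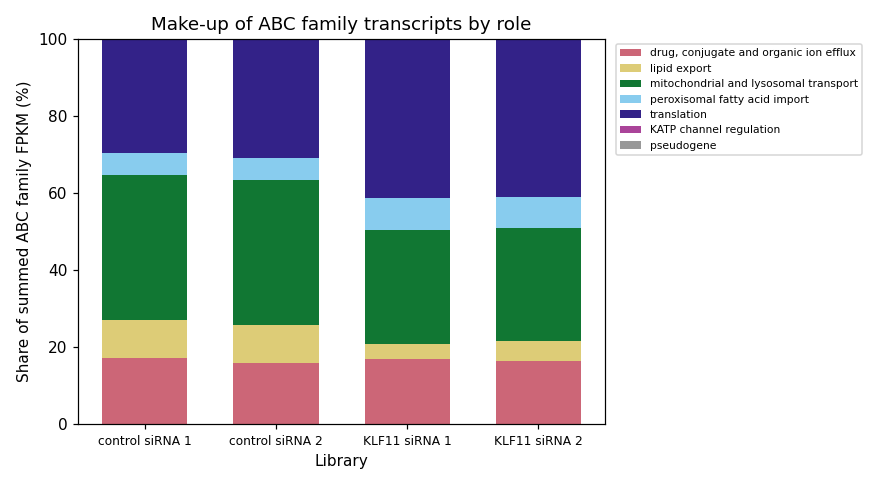
Share of the summed FPKM of all 46 ABC genes (y axis, percent) held by each role in each library. The translation block grows from 29.5% and 30.6% to 41.2% and 40.8%, and the lipid export block shrinks from 9.82% and 9.87% to 3.75% and 5.34%.

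ABCG2 and ABCC4, both drug pumps of the plasma membrane, moved most and in opposite directions. KLF11 belongs to a family of factors whose known binding sites are GC boxes and CACCC boxes, so the 250 bases before the annotated starts of ABCG2, ABCC4 and ABCA1, the 3 ABC genes with the largest changes, are shown. They are from RefSeq (build GRCh38.p14), 5′ to 3′ on the minus strand of the genome, at chr4:88158910-88159159 for ABCG2 (of whose 5 RefSeq starts the one nearest the principal GENCODE transcript was used), at chr13:95301452-95301701 for ABCC4 and at chr9:104928156-104928405 for ABCA1. Capitals mark each match to the GC box GGGCGG or its reverse complement CCGCCC.
ABCG2: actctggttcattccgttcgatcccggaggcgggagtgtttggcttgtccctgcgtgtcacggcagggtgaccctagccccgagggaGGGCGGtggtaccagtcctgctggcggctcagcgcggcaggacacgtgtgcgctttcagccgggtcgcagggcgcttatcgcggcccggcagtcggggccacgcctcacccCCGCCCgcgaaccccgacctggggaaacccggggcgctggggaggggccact
ABCC4: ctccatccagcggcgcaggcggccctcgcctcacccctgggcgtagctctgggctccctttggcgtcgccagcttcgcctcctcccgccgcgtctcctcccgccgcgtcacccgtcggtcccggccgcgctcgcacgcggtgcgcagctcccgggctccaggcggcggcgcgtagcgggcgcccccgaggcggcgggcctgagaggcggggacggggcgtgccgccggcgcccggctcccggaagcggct
ABCA1: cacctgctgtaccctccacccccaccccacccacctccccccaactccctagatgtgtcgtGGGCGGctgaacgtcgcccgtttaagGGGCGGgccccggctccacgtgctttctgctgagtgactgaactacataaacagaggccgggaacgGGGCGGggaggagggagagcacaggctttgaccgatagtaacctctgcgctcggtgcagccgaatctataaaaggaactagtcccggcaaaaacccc
The ABCG2 window held 2 matches, whose first bases lay 163 and 52 bases before the start, the ABCC4 window 0, and the ABCA1 window 3. CACCC, searched on both strands as CACCC or GGGTG, was found 2, 2 and 3 times in that order. Among the 19 tested members with a window in the table (the other 3 had none), 17 held a GC box, namely 2 of the 3 that rose, 6 of the 7 that fell and 9 of the 9 that did not pass. A CACCC box was in 12 of the 19, namely 1 of the 3 that rose, 4 of the 7 that fell and 7 of the 9 that did not pass. In all 35116 promoter windows of the same length, those of noncoding genes included, 42.6% held a GC box and 54.7% a CACCC box. The TEAD core GGAATG or CATTCC, the site of YAP's DNA-binding partners, was in 4 of the 19 windows, ABCG2, ABCC5, ABCB6 and ABCF1, and in 11.9% of all windows. Matches describe these letters and are not binding sites, and the start used by these cells was not measured.

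ABCG2 (ENSG00000118777), the breast cancer resistance protein, exports drugs, porphyrins and urate. Its level was 1.19 and 1.25 FPKM in control libraries and 12.4 and 9.15 FPKM in KLF11 siRNA replicates 1 and 2. Both knockdown libraries lay far above both controls. The mean went from 1.22 ± 0.0424 to 10.8 ± 2.31 FPKM (SD, n = 2 per group), or 8.84-fold higher (log2 change 2.39, SE 0.189, adjusted p = 0.00322, limma). The log2 change ran from 1.34 with a pseudocount of 5 to 3.03 with a pseudocount of 0.1, as the +1 damps a gene that starts near 1 FPKM.

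ABCC4 (ENSG00000125257) exports cyclic nucleotides, prostaglandins and nucleotide analogues. It stood at 26.4 and 23.9 FPKM in the control pair and at 2.24 and 2.49 FPKM in the knockdown pair. Here the KLF11 siRNA pair was tight and low, and no library of a group came near the other group. The control mean was 10.6-fold that of KLF11 siRNA (log2 change -2.96, SE 0.128, adjusted p = 0.00136), the largest fitted change among the 22 tested members in either direction.

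The ratio of ABCG2 to ABCC4 within a library, which a single scaling factor per library cannot alter, was 0.0450 and 0.0522 in the control pair and 5.54 and 3.67 in the knockdown pair. In control libraries ABCC4 was thus the more abundant transcript of the pair, and with KLF11 siRNA ABCG2 was. Against ABCC1, the ratio for ABCG2 went from 0.0769 and 0.0966 to 0.788 and 0.591, and for ABCC4 from 1.71 and 1.85 to 0.142 and 0.161.

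ABCC1 (ENSG00000103222), the founding multidrug resistance-associated protein and an exporter of glutathione conjugates, was at 15.5 and 12.9 FPKM in the control pair and 15.8 and 15.5 FPKM in the knockdown pair (log2 change 0.13, SE 0.124, adjusted p = 0.436). It was the highest of the efflux pumps with KLF11 siRNA. ABCC5 (ENSG00000114770), an exporter of cyclic GMP, rose from 9.57 and 9.30 to 15.3 and 12.9 FPKM (log2 change 0.53, SE 0.129, adjusted p = 0.0311), a mean 1.49-fold higher. It did not pass without KLF11 siRNA replicate 1 (adjusted p = 0.0758) and without a filter on low genes (0.0814). ABCC10 (ENSG00000124574), a pump for taxanes, had 16.3 and 11.6 FPKM in the control pair and 10.97 and 13.5 FPKM in the knockdown pair (adjusted p = 0.541), with the groups overlapping.

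The best-known pump of the family was near 0. ABCB1, which encodes P-glycoprotein, was at 0.14 FPKM and listed at 0 in the control pair and at 0.10 and 0.03 FPKM in the knockdown pair. ABCB4, a phospholipid floppase of bile, measured 0.11 and 0.28 against 0.19 and 0.29 FPKM. ABCB5, another pump linked to drug-resistant cells, measured 0.03 and 0.08 against 0.24 and 0.12 FPKM, too low to be tested. Of the hepatic conjugate exporters, ABCC2 was at 0.54 and 0.34 against 0.27 and 0.56 FPKM and ABCC3 at 0.91 and 0.59 against 0.80 and 0.91 FPKM. Both sets of values overlapped. ABCC6, whose reads can be split with its pseudogenes ABCC6P1 and ABCC6P2, measured 0.50 and 0.94 against 0.28 and 0.54 FPKM. ABCC11 and ABCC12, close relatives of ABCC5, were at most 0.26 FPKM, and so was ABCB11, the bile salt export pump.

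**Figure D4:**
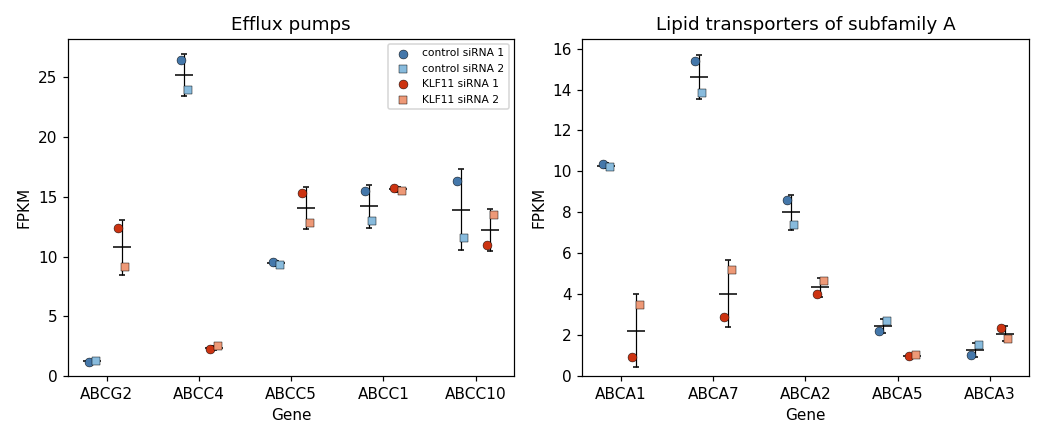
FPKM in each library of 5 efflux pumps (left) and the 5 tested members of subfamily A (right); black dashes and bars are the group mean and SD (n = 2 each). ABCG2 rises to 12.4 and 9.15 FPKM while ABCC4 falls to 2.24 and 2.49 FPKM, and 4 of the 5 subfamily A genes are lower with KLF11 siRNA.

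Lipid transporters of subfamily A mostly fell. Of its 12 members 5 were tested, and 4 of those fell (80.0%, against 21.7% of all tested genes) and 0 rose, with a median log2 change of -0.78. ABCA1 (ENSG00000165029), which hands cholesterol and phospholipid to apolipoprotein A-I, went from 10.4 and 10.2 FPKM to 0.94 and 3.49 FPKM. Both knockdown libraries were low, replicate 1 more so than replicate 2. The control mean was 4.64-fold higher (log2 change -1.93, SE 0.397, adjusted p = 0.0199). Without KLF11 siRNA replicate 1 the fold was 2.95, and without replicate 2 it was 10.9.

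ABCA7 (ENSG00000064687), a phospholipid transporter close to ABCA1 in sequence and a risk gene for Alzheimer's disease, fell from 15.4 and 13.8 to 2.86 and 5.18 FPKM (control mean 3.64-fold higher, log2 change -1.67, SE 0.245, adjusted p = 0.0088). As for ABCA1, KLF11 siRNA replicate 1 was the lower of the pair. ABCA2 (ENSG00000107331), a transporter of lysosomes and endosomes known for myelin lipids, fell from 8.61 and 7.38 to 4.01 and 4.65 FPKM (adjusted p = 0.0188). ABCA5 (ENSG00000154265), also of lysosomes and endosomes, fell from 2.20 and 2.68 to 0.99 and 1.00 FPKM (adjusted p = 0.0299). It was the 1 tested member with a group mean under 1 FPKM, and its call was lost with quantile normalization (adjusted p = 0.0695) and without KLF11 siRNA replicate 1 (0.0584).

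With no filter on low genes, which raises the number of genes tested, the calls of ABCA1, ABCA7, ABCA2 and ABCA5 were lost too, at adjusted p-values of 0.0868, 0.0504, 0.0631 and 0.0974. ABCA3 (ENSG00000167972), the surfactant lipid transporter of lung lamellar bodies, was the exception in direction, with 1.03 and 1.52 against 2.32 and 1.81 FPKM (log2 change 0.43, adjusted p = 0.173). The groups did not overlap, but the difference did not pass. The other 7 members, ABCA4, ABCA6, ABCA8, ABCA9, ABCA10, ABCA12 and ABCA13, were at most 0.34 FPKM in any library. Exons of ABCA5 overlap those of ABCA10 on the same strand, so reads may be shared, and ABCA10 was at most 0.17 FPKM.

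The sterol exporters of subfamily G were low. ABCG1, which loads cholesterol onto HDL, was at 0.80 and 0.76 FPKM in the control pair and 0.43 and 0.54 FPKM in the knockdown pair, and its relative ABCG4 at 0.88 and 0.65 against 0.17 and 0.43 FPKM. For both, each knockdown library was below each control library, but they were under the filter and not tested. ABCG5 and ABCG8, which together export plant sterols in liver and gut, were at 0.06 and 0.03 FPKM against 0 in both, and at 0 in every library. ABCG2 was thus the only one of the 5 subfamily G genes above a mean of 1 FPKM.

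Partners of these lipid exporters also moved. Of 16 tested genes for sterol sensing and cholesterol efflux 2 rose (12.5%, near the 13.5% of all tested genes) and 8 fell (against 21.7%), with a median log2 change of -0.31 against -0.11 for all genes. APOA1, which encodes the acceptor of ABCA1's lipid, fell from 14.2 and 11.5 to 0.96 and 2.19 FPKM (adjusted p = 0.00504), and APOE from 847 and 740.3 to 178 and 263 FPKM (adjusted p = 0.00497). NPC2, the lysosomal cholesterol carrier, was 2.60-fold lower (adjusted p = 0.00237). NR1H3, which encodes the sterol-activated receptor LXR-alpha that drives ABCA1 and ABCG1, fell 2.32-fold (adjusted p = 0.0151), and so did MYLIP, another LXR target, 2.05-fold. Median-of-ratios scaling gave 4 higher and 7 lower, and with no filter 1 and 5. Without either control library limma called 0 genes of this list and of every pathway list described here; at an unadjusted p under 0.05 the sterol list had 3 higher and 7 lower without replicate 1, and 2 and 8 without replicate 2. The early endoderm markers without CER1, summed, went in the same libraries from 733 and 724 to 349 and 483 FPKM, and their part was not tested. KLF11 siRNA replicate 1 was the lower, as for ABCA1 and ABCA7. That order is common, as replicate 1 lay farther from the control mean in 79.1% of all called genes.

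Members of mitochondria and lysosomes included the most abundant ABC transcript. ABCD4 (ENSG00000119688), which serves the release of vitamin B12 from lysosomes, fell from 97.7 and 90.2 to 59.0 and 55.7 FPKM (control mean 1.64-fold higher, log2 change -0.70, SE 0.0883, adjusted p = 0.00644). Its exons overlap those of AC005519.1 on the same strand in GENCODE release 29, so reads may be shared. ABCB6 (ENSG00000115657), a porphyrin transporter, fell from 24.5 and 21.7 to 10.1 and 12.7 FPKM (control mean 2.02-fold higher, log2 change -0.96, SE 0.145, adjusted p = 0.00944). In both genes each knockdown library was below each control library. Exons of ABCB6 overlap those of AC068946.2 on the same strand, so its reads may be shared too.

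ABCB8 and ABCB10, transporters of the inner mitochondrial membrane, did not pass. ABCB8 measured 11.9 and 10.3 against 10.4 and 10.4 FPKM, and ABCB10, which supports haem synthesis, 7.27 and 6.82 against 8.89 and 7.05 FPKM. In both genes the groups overlapped, and ABCB8, at a log2 change of -0.09, turned to 0.0222 with median-of-ratios scaling. ABCB9, a lysosomal peptide transporter, was at 1.68 and 1.81 against 1.05 and 1.09 FPKM (log2 change -0.41, adjusted p = 0.144), and it passed only when the variance trend was left out of the fit (adjusted p = 0.0482). Its exons overlap those of ARL6IP4 and OGFOD2 on the opposite strand.

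Genes for iron-sulfur clusters and haem in mitochondria were called at about the rate of all tested genes (33.3% against 35.2%), in that 4 of 18 tested rose and 2 fell (median log2 change 0.12). CPOX, an enzyme of porphyrin synthesis, rose from 5.31 and 4.65 to 8.88 and 9.10 FPKM (adjusted p = 0.0142), and FECH, which inserts iron into the porphyrin, fell from 17.6 and 16.1 to 10.9 and 12.1 FPKM (adjusted p = 0.0249). ISCA2, an iron-sulfur assembly factor, fell 1.52-fold (adjusted p = 0.0133), and SLC25A37, the mitochondrial iron importer, rose 1.42-fold (adjusted p = 0.0368). ISCA1 and ISCU were the others that rose. With TPM scaling 2 of the list rose, with no filter 1 rose and 1 fell, and without KLF11 siRNA replicate 1, 2 rose and 1 fell.

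The peroxisomal fatty acid importer ABCD3 did not pass, while 10 genes of the same organelle fell. ABCD3 (ENSG00000117528), the importer of branched-chain fatty acids and bile acid precursors, was at 13.3 and 12.7 FPKM in the control pair and 17.1 and 16.5 FPKM in the knockdown pair (log2 change 0.35, SE 0.102, adjusted p = 0.051). It missed the threshold narrowly. It passed with quantile normalization (adjusted p = 0.0211), with median-of-ratios scaling (0.0241) and with a filter of mean FPKM 5 (0.0452). ABCD2 did not exceed 0.03 FPKM.

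Of 23 tested genes of peroxisome assembly and oxidation 1 rose (4.35%, against 13.5% of all tested genes) and 10 fell (43.5%, against 21.7%), with a median log2 change of -0.41 against -0.11 for all genes. EHHADH, a bifunctional enzyme of peroxisomal beta-oxidation, fell from 26.1 and 24.5 to 1.27 and 1.57 FPKM (17.8-fold, adjusted p = 0.00104). HSD17B4, the other bifunctional enzyme, fell from 250.4 and 264 to 131 and 151 FPKM, and PHYH, which starts the breakdown of phytanic acid, from 18.2 and 20.1 to 8.93 and 10.4 FPKM. PEX5, the import receptor of the matrix enzymes, fell 1.79-fold (adjusted p = 0.00655). The 1 that rose was PEX3, which seats membrane proteins such as these importers (1.65-fold, adjusted p = 0.0471), a call lost with TPM scaling and without KLF11 siRNA replicate 1. With no filter 0 rose and 6 fell. PPARA, a fatty acid receptor that drives peroxisomal oxidation genes, is listed under transporter regulators and fell from 5.04 and 5.74 to 1.06 and 1.61 FPKM (limma, adjusted p = 0.00722). Its part in the changes of these peroxisomal genes was not tested.

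The members that act on ribosomes were abundant and shifted little. ABCE1 (ENSG00000164163), which splits ribosomes after termination, rose from 40.3 and 40.1 to 52.4 and 53.9 FPKM (1.32-fold, log2 change 0.39, SE 0.0812, adjusted p = 0.0201). Both pairs were tight. Exons of ABCE1 overlap those of ANAPC10 and OTUD4 on the opposite strand, and since the strand setting of the counting is not given, reads may be shared. ABCF2 (ENSG00000033050) was at 18.2 and 18.8 against 22.9 and 22.9 FPKM (log2 change 0.29, adjusted p = 0.0614), and passed with quantile normalization (adjusted p = 0.0256) and median-of-ratios scaling (0.0279). ABCF1 (ENSG00000204574), which binds the initiation factor eIF2, was at 46.1 and 45.04 against 49.1 and 47.4 FPKM (adjusted p = 0.477), and ABCF3 at 17.6 and 13.9 against 17.1 and 14.8 FPKM (adjusted p = 0.921).

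Of 18 tested genes of initiation control and ribosome recycling 5 rose (27.8%, against 13.5% of all tested genes; in either direction 35.2% of all genes were called) and 0 fell by limma (0 lower at an unadjusted p under 0.05), with a median log2 change of 0.14. ETF1, the termination factor that precedes ABCE1, rose 1.38-fold (adjusted p = 0.0153), EIF2S3, a subunit of eIF2, 1.32-fold (adjusted p = 0.0178), EIF2B1 1.37-fold (adjusted p = 0.0214) and EIF6 1.37-fold (adjusted p = 0.037). GSPT1, the partner of ETF1, was the fifth, at an adjusted p of 0.0464. With TPM scaling or without KLF11 siRNA replicate 1, 3 rose, and with no filter 2.

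Conjugating enzymes that supply the ABCC pumps mostly fell. Of 16 tested genes of glutathione synthesis and conjugation 2 rose (12.5%, near the 13.5% of all tested genes) and 10 fell (62.5%, against 21.7%), with a median log2 change of -0.52. MGST2, a microsomal glutathione transferase, fell from 292 and 311 to 13.6 and 45.3 FPKM (adjusted p = 0.00888), GSTA1 from 5.22 and 5.82 to 0.38 and 1.08 FPKM (adjusted p = 0.00659), and GSTK1 fell 1.79-fold (adjusted p = 0.00523) and GSTA4 1.74-fold (adjusted p = 0.00888). GSTO1 and GCLM, the modifier subunit of the first enzyme of glutathione synthesis, were the 2 that rose. Members of the GSTA and GSTM clusters are alike in sequence, so the split of reads among them is uncertain. With no filter 0 rose and 3 fell, and without KLF11 siRNA replicate 1, 1 rose.

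Regulators known to act on transporter genes were split, with 3 of 10 tested higher and 4 lower, against 13.5% and 21.7% of all tested genes (median log2 change -0.14). EPAS1, the hypoxia factor HIF-2-alpha, rose 5.72-fold, from 0.75 and 0.94 to 5.19 and 4.48 FPKM (limma, adjusted p = 0.005). YBX1, long studied as an activator of ABCB1, rose 1.52-fold (adjusted p = 0.0128). NFE2L2, the oxidative stress factor that drives ABCC genes, fell from 51.2 and 54.4 to 31.9 and 35.9 FPKM (adjusted p = 0.0106), and HNF4A, a hepatic factor, from 3.48 and 3.48 to 0.05 and 0.56 FPKM (adjusted p = 0.00815). ARNT and PPARA also fell. The drug-sensing receptors NR1I2 and NR1I3 were under the filter.

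Uptake carriers for drugs and organic ions, the counterpart of efflux pumps, gave 2 higher and 1 lower of 11 tested, 27.3% called against 35.2% of all tested genes (median log2 change -0.09). SLC22A3, an organic cation transporter, rose from 2.77 and 3.05 to 11.97 and 8.51 FPKM (adjusted p = 0.00655), and SLC47A1, a cation and proton antiporter, from 3.77 and 4.57 to 11.9 and 7.92 FPKM (adjusted p = 0.0199). SLC22A5, the carnitine carrier, fell from 2.15 and 3.17 to 0.96 and 0.98 FPKM (adjusted p = 0.0316). SLC29A1, a nucleoside carrier, had 35.3 and 31.1 against 27.0 and 25.6 FPKM (adjusted p = 0.0633). With no filter 1 of the list rose and 0 fell, and without KLF11 siRNA replicate 2, 2 fell.

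ABC proteins with other symbols stand outside the rule. TAP2, which with TAP1 forms the peptide transporter that loads MHC class I, was at 1.43 and 1.5 against 3.0 and 2.37 FPKM (log2 change 0.57, adjusted p = 0.0648), and it passed with median-of-ratios scaling, with quantile normalization, without the variance trend and without KLF11 siRNA replicate 2. TAP1 and the chloride channel CFTR were under the filter. The potassium channel regulators ABCC8 and ABCC9 were at most 0.94 FPKM, and both pore subunits, KCNJ8 and KCNJ11, were under the filter.

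In all, 24 of the 46 ABC genes were under the filter. Of these 18 stayed below 0.5 FPKM in every library, ABCG8 was listed at 0 in all, and 6 reached between 0.5 and 1 FPKM in some library, namely ABCC2, ABCC3, ABCC6, ABCC9, ABCG1 and ABCG4. RefSeq lists ABCC13 as a pseudogene and the other 45 as protein coding. Among the 10 called members, KLF11 siRNA replicate 1 lay farther from the control mean than replicate 2 in 8, as in 79.1% of all called genes. The exceptions were ABCE1 and ABCD4, chosen for naming after their values were seen. KLF11 itself was lower in replicate 1 (5.49 FPKM) than in replicate 2 (6.74 FPKM), and with 2 libraries no relation can be tested.

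**Figure D5:**
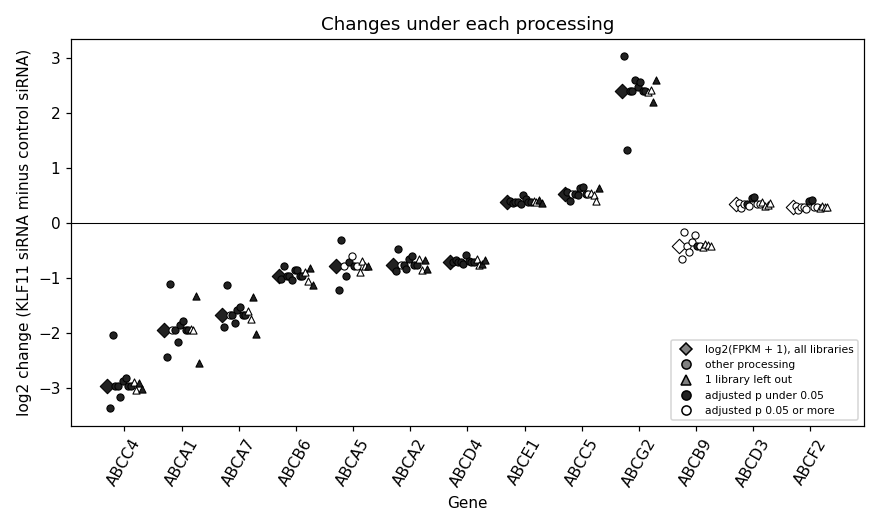
Log2 change (y axis, KLF11 siRNA minus control siRNA) of the 10 called ABC genes and of ABCB9, ABCD3 and ABCF2 under each processing: diamonds are the fit on log2(FPKM + 1) with all libraries, circles other processing, triangles fits with 1 library left out, and filled symbols an adjusted p under 0.05. No called gene crosses 0, and ABCC4 stays between -3.36 and -2.03.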

How the data were processed

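Polyadenylated RNA was sequenced from 4 libraries, 2 per group. The authors deposited FPKM values with 2 decimals, 1 column per library, and per the submitters' processing notes used Trim Galore 0.5.0, RSEM 1.3.1 and build hg19 (GRCh37). The aligner, the annotation, the strand setting and filters were not given in the sources used here. Depth is unknown, so no counting interval is given. RSEM divides reads among matching transcripts, which leaves genes with pseudogene copies (ABCC6 here) uncertain.

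Groups came from titles, and columns were matched to samples by name, with 0 unmatched. Genes with a mean of at least 1 FPKM were fitted with limma 3.58.1 in R 4.3.3 (lmFit, eBayes with a trend) on log2(FPKM + 1), with Benjamini-Hochberg adjustment over all 15320 and a threshold of 0.05. The code of the fit was run on simulated data with few changed genes, as many up as down, and independent noise. That setting is unlike these data, so it gives no error rate for the calls here. Folds are ratios of mean FPKM, and a log2 change understates that of low genes. With 2 libraries per group an exact permutation p cannot be smaller than 0.333 (two-sided), so none is given. All members enter the counts and sums, some genes are not reported here by name, and up to 4 genes with the smallest p were named per list; ISCA1, ISCU, GSPT1, GSTO1, GCLM, PEX3, ARNT, NFE2L2, YBX1, MYLIP and NR1H3 were added after their values were seen. The members and lists were chosen with earlier results of these data known. GCN1L1 and LHX1 were not analysed here. Alternatives were other pseudocounts (0.1, 5), no filter, a filter at 5 FPKM, TPM, median-of-ratios and quantile scaling, no trend, a replicate block and each library left out. Promoters and motifs came from RefSeq windows (GRCh38.p14), another build than the files', matched by symbol, and exon overlaps from GENCODE release 29. Figures were drawn with matplotlib 3.10.9.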

Additional observations from a re-analysis of the deposited data

How the results depend on the processing

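Over all genes 2071 were higher and 3329 lower, against 887 and 1251 with no filter. Of ABC genes 3 were higher and 7 lower. Median-of-ratios scaling and quantile normalization each gave 5 higher, adding ABCD3 and ABCF2, and no filter gave 3 lower. With 1 library left out, counts ran from 0 to 2291 higher and from 0 to 3813 lower over all genes, and from 0 to 3 higher and from 0 to 7 lower among ABC genes. The 0 counts came without either control library, where at an unadjusted p under 0.05 the counts over all genes were 1826 and 1761 higher and 2635 and 3032 lower. In those fits the spread rests on the KLF11 siRNA pair, and the lone control library is assumed to vary like it. Of the 10 called members 5 kept their call in all 9 alternatives with every library (ABCC4, ABCG2, ABCD4, ABCB6 and ABCE1).

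Named genes that changed sign were all short of the threshold in every fit. ABCB8 moved from -0.09 to 0.0222 with median-of-ratios scaling and 0.0424 with quantile normalization, and ran from -0.18 to 0.00827 with 1 library left out. ABCC10 ran from -0.40 to 0.0669 with 1 library left out. ABCF3 moved from 0.02 to -0.0184 with TPM scaling and ran from -0.14 to 0.18 with 1 library left out. The cause was not tested.

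The labels number replicates 1 and 2 in both groups but do not say that a number marks a shared batch. Deviations of same-numbered libraries had a correlation of -0.0711 over the tested genes. With 2 libraries per group this cannot show whether a batch was shared. With the replicate block, 2 ABC genes were higher and 6 lower, 1707 and 2644 over all genes, and ABCA5 (adjusted p = 0.0586) and ABCC5 (0.0529) lost their call. The depth is unknown, and the 24 genes under the filter were not tested.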
